A study of Mus musculus with 6 samples.

Results

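The genes described here carry or control salt reabsorption in the thick ascending limb of the loop of Henle: Slc12a1, Kcnj1, Bsnd, Ptger3, Casr, Umod and Egf. All probe sets to which the platform annotation gives 1 gene symbol from this list were taken, which gave 12 of the 45037 probe sets tested, 5 genes having 2 probe sets and Bsnd and Egf 1 each. Kidney RNA came from adult male mice aged 10 weeks, with 1 Affymetrix array per animal. In 3 mice, titled TG and called ICD here, the intracellular domain of megalin was expressed, and the series' design calls these animals heterozygous for it. The other 3 mice were wild type (WT) littermates. The strain and the promoter that drives the domain are not given in the sources used here. Megalin is an endocytic receptor of the proximal tubule, so the limb lies downstream of the cells in which its tail is normally made. The comparison of the genotypes asks whether expression of the tail goes with altered levels of these transcripts.

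The thick ascending limb takes up sodium, potassium and chloride from the urine without letting water follow, which dilutes the urine and builds the salt gradient of the medulla. The cotransporter NKCC2 (Slc12a1) brings the ions in across the apical membrane, the potassium channel ROMK (Kcnj1) returns potassium to the lumen, and barttin (Bsnd) is a subunit needed for chloride to leave across the basolateral membrane. Prostaglandin E2, through the receptor EP3 (Ptger3), and calcium, through the calcium-sensing receptor (Casr), restrain this transport. Uromodulin (Umod), a protein secreted into the urine, and the precursor of epidermal growth factor (Egf) are made by the limb, Egf also by the distal convoluted tubule.

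The bases before the start sites of Ptger3, which had the largest difference of the 7 genes, and of Slc12a1 and Umod, which define the segment, are shown to give the sequence context of the transcripts compared. They are from RefSeq on GRCm38.p6, 5′ to 3′ on the gene's strand, and end before the outermost start annotated for the gene. Ptger3 (plus strand, chr3:157566626-157566820, 195 bases), Slc12a1 (plus strand, chr2:125152350-125152509, 160 bases) and Umod (minus strand, chr7:119479263-119479512, 250 bases) read as follows.
Ptger3: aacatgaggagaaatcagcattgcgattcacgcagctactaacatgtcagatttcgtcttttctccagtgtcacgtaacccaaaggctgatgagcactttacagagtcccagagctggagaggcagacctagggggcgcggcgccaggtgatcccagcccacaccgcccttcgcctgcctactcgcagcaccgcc
Slc12a1: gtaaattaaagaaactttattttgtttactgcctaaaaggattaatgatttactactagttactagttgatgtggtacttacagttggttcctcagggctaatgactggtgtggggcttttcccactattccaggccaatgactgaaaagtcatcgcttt
Umod: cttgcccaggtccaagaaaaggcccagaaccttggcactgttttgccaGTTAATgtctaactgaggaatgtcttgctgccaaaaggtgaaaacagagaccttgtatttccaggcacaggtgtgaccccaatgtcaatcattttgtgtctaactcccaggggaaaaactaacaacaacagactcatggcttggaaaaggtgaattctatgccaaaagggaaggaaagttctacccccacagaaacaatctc
The capitals mark the half-site GTTAAT of HNF1 factors, which act in nephron development and are known to drive Umod. It was searched on both strands, as were the half-site TGACG of the cAMP response element and the core AAGGTCA of the oestrogen-related receptors. None of the 3 motifs overlapped another in these windows. The HNF1 half-site was found 1 time in the Umod window and 0 times in the Ptger3 and Slc12a1 windows. It was held by 6.43% of the 32851 RefSeq promoters over a window of the same length as that of Umod. The other motifs were found 0 times in these 3 windows. A match describes letters only.

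The values are RMA values on the log2 scale, so a difference of 1 is a 2-fold change, and levels of different probe sets cannot be set against each other. Array medians lay between 6.62 and 6.66. The array labelled WT 3 stood apart in proximal tubule markers: their mean, relative to the mean of the 6 arrays, was -0.54 there, against 0.079 to 0.19 on ICD arrays and 0.0076 and 0.16 on the other WT arrays. This mean was carried by Slc5a12, Slc6a19 and Slc5a2, transporters of the early proximal tubule: Slc5a12 read 4.12 on WT 3, against 9.27 to 10.47 on ICD arrays and 9.82 and 10.35 on the other WT arrays. Over the other 11 of the 14 markers the mean of WT 3 was -0.031, against 0.017 to 0.026 on ICD arrays and -0.049 and 0.018 on the other WT arrays, and Kap, Slc27a2 and Cyp2e1 were highest on WT 3. The plot with single arrays left out shows the 7 limb genes without WT 3, and the text gives such values for part of the other genes. The kidneys were measured whole, so fewer cells of a segment and less RNA per cell cannot be told apart.

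Of the 12 limb probe sets, 0 passed the test, a limma fit over all probe sets with Benjamini-Hochberg adjusted p under 0.05; over all probe sets 0% passed. The difference, ICD minus WT, was below 0 at 11 of the 12, a sign shared by 52.8% of all probe sets. At unadjusted limma p under 0.05 stood 2 of the 12, both lower and both of Ptger3, where the background is 2.26% lower. The same 2 probe sets had every ICD array below every WT array, which 5.05% of all probe sets had. The 7 genes share arrays and segment, and probe sets of 1 gene share a transcript, so these counts are not counts of independent observations. The median difference of the 7 genes, each by its brightest probe set, was -0.097, and that over all 18193 genes was -0.012.

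**Figure D1:**
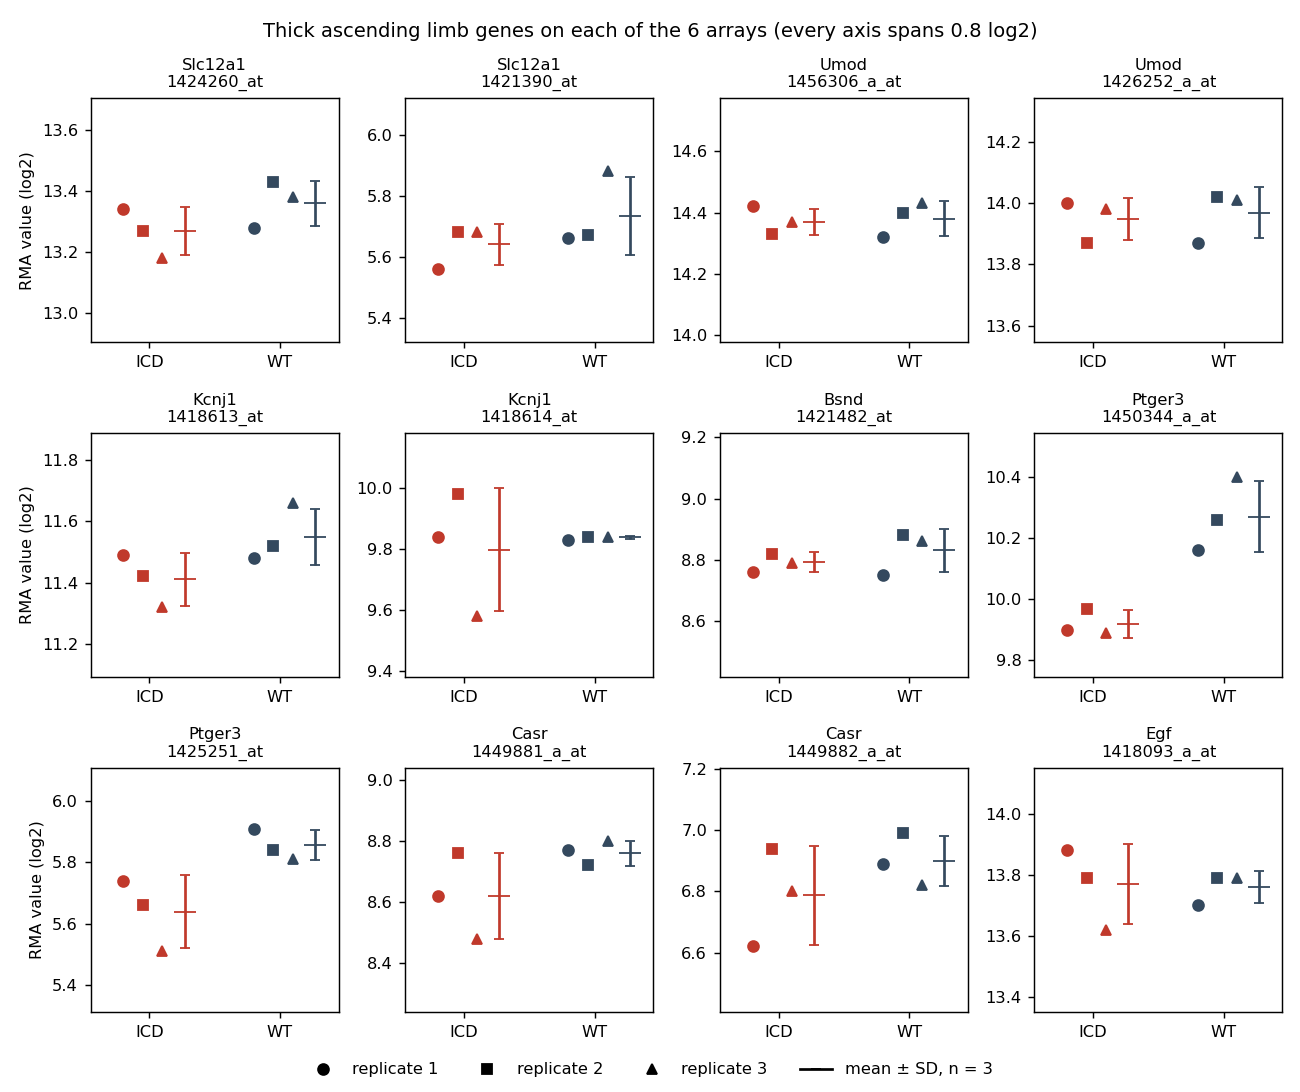
Log2 RMA values of the 12 limb probe sets on the 3 ICD arrays (red, left) and the 3 WT arrays (dark, right), with the mean and SD of each group; symbols mark the replicate number, which pairs no animals, and every vertical axis spans 0.8. The groups are apart at both Ptger3 probe sets and overlap at the other 10.

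Ptger3 stood furthest from 0. Its bright probe set 1450344_a_at, whose suffix marks a set matching several transcripts of 1 gene, read 9.90, 9.97 and 9.89 on ICD arrays 1 to 3, against 10.16, 10.26 and 10.40 on WT arrays 1 to 3. The highest ICD array lay below the lowest WT array. The means were 9.92 ± 0.046 in ICD and 10.27 ± 0.12 in WT kidneys (SD, n = 3 each). ICD minus WT was -0.35 (95% confidence interval -0.53 to -0.17), at a limma adjusted p of 0.6 (unadjusted p = 0.00178). On the linear scale this is -21.8%, with an interval of -30.9% to -11.4%. It did not pass the test over all probe sets.

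The second Ptger3 probe set, 1425251_at, is dim, with a mean below the median of all probe sets (6.64). It read 5.74, 5.66 and 5.51 in ICD kidneys, against 5.91, 5.84 and 5.81 in WT kidneys. Again no ICD array reached a WT array, but the order within the groups differed from that at the bright set: WT 1 was the highest of the 6 arrays here and WT 3 there. The difference was -0.22 (interval -0.40 to -0.035, limma adjusted p = 0.798). EP3 has several splice forms that differ in their tails, and which forms either probe set detects was not analysed here. Leaving out 1 array at a time gave differences between -0.41 and -0.29 at the bright set, the smallest without WT 3, and between -0.27 and -0.15 at the dim set.

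Casr, the other receptor that restrains transport, was read by 2 probe sets. At 1449881_a_at the ICD arrays read 8.62, 8.76 and 8.48 and the WT arrays 8.77, 8.72 and 8.80. ICD 2 lay above WT 2, so the groups overlap, and the low value of ICD 3 carried much of the difference of -0.14 (interval -0.33 to 0.052, limma adjusted p = 0.927). It was -0.070 without ICD 3 and -0.21 without ICD 2. The second set, 1449882_a_at, read 6.62, 6.94 and 6.80 in ICD and 6.89, 6.99 and 6.82 in WT kidneys. Here ICD 1 was the low array, and the difference of -0.11 (interval -0.33 to 0.10) was -0.029 without it. The parathyroid hormone gene Pth, a marker of the gland in which Casr is best known, read 4.37 to 4.49 on ICD arrays and 4.29 to 4.62 on WT arrays, near the low end of the array scale.

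Of the apical transporters, Slc12a1 differed little. At the bright set 1424260_at it read 13.34, 13.27 and 13.18 in ICD kidneys, against 13.28, 13.43 and 13.38 in WT kidneys. ICD 1 lay above WT 1, and the groups overlap. The difference was -0.097, its interval reached from -0.27 to 0.073, or -16.9% to 5.19% on the linear scale, and the limma adjusted p was 0.95. It moved between -0.14 and -0.056 as single arrays were left out. The dim set 1421390_at read 5.56, 5.68 and 5.68 in ICD and 5.66, 5.67 and 5.88 in WT kidneys, a difference of -0.093 (interval -0.28 to 0.098). Without WT 3, its highest array, that difference was -0.020.

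Kcnj1, which recycles potassium for the cotransporter, came close to separating the groups at 1 of its probe sets. At 1418613_at it read 11.49, 11.42 and 11.32 in ICD kidneys, against 11.48, 11.52 and 11.66 in WT kidneys. Only ICD 1 and WT 1, at 11.49 and 11.48, are out of order. The difference was -0.14 (interval -0.32 to 0.036, limma adjusted p = 0.904, unadjusted p = 0.102), and -0.093 without WT 3. The other set, 1418614_at, read 9.84, 9.98 and 9.58 in ICD kidneys and 9.83, 9.84 and 9.84 in WT kidneys. There the ICD arrays lay on both sides of the WT arrays, with SDs of 0.20 and 0.0041 (n = 3 each), and the difference of -0.041 turned to 0.069 without ICD 3. The intervals of the 2 probe sets overlap, that of 1418614_at being -0.27 to 0.19.

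Bsnd, the barttin subunit, read 8.76, 8.82 and 8.79 at 1421482_at in ICD kidneys and 8.75, 8.88 and 8.86 in WT kidneys. The ICD arrays lay within the range of the WT arrays, and the difference was -0.037 (interval -0.19 to 0.12, limma adjusted p = 0.988). The interval allows a change of -12.5% to 8.59%.

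The secreted products had the smallest differences between the groups. Umod read 14.42, 14.33 and 14.37 at 1456306_a_at in ICD kidneys, against 14.32, 14.40 and 14.43 in WT kidneys, a difference of -0.0093 (interval -0.16 to 0.14, limma adjusted p = 0.997). At 1426252_a_at it read 14.00, 13.87 and 13.98 in ICD and 13.87, 14.02 and 14.01 in WT kidneys, a difference of -0.015 (interval -0.19 to 0.16). Both Umod intervals fit within -12.0% and 11.4% on the linear scale.

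Egf, at its 1 probe set 1418093_a_at, read 13.88, 13.79 and 13.62 in ICD kidneys and 13.70, 13.79 and 13.79 in WT kidneys. ICD arrays were both the highest and the lowest of the 6. The difference was 0.010 (interval -0.18 to 0.20, limma adjusted p = 0.998), the 1 positive value among the limb probe sets. These intervals bound the change in either direction, and a p above the threshold does not show that the levels were equal.

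**Figure D2:**
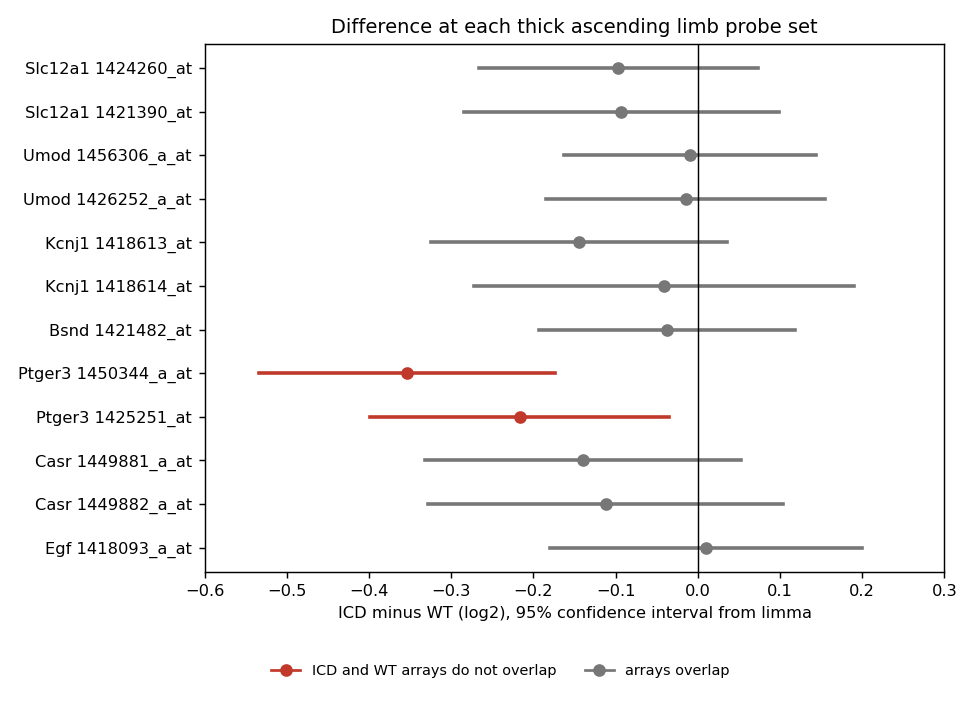
Difference between ICD and WT arrays (log2) at each of the 12 limb probe sets, with its 95% confidence interval from limma; red marks probe sets whose groups do not overlap. The intervals of both Ptger3 probe sets lie below 0 and the other 10 include 0.

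Read array by array, the average of the 7 genes was lower on every ICD array than on every WT array, but by a narrow gap that depended on Ptger3. Among the single genes only Ptger3 separated the groups. Taken by the brightest probe set and centred on the mean of the 6 arrays, their average was -0.018, -0.023 and -0.12 on ICD arrays 1 to 3, against -0.011, 0.066 and 0.11 on WT arrays 1 to 3. WT 1 lay just above ICD 1 and ICD 2, whereas ICD 3 was the lowest and WT 3 the highest. Centred Ptger3 alone was 0.069 on WT 1, against -0.20 and -0.12 on ICD 1 and ICD 2. With Ptger3 taken out, the average on WT 1 fell below those on ICD 1 and ICD 2. How often averages of other gene groups separate these arrays was not computed. ICD 3 held the lowest value for 5 of the 7 genes, all but Umod and Bsnd, which were lowest on WT 1. WT 3 held the highest value for 4 of 7: Umod, Kcnj1, Ptger3 and Casr. Over the 12 probe sets, 11 lay below their own mean on ICD 3, against 6 and 7 on ICD 1 and ICD 2.

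**Figure D3:**
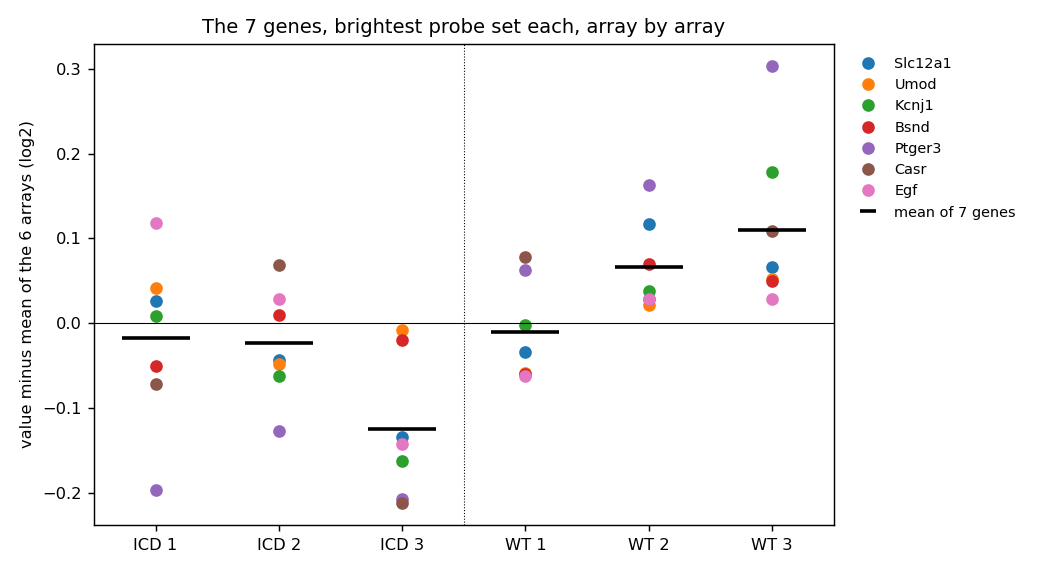
The 7 limb genes on each array (ICD left, WT right), as the log2 value of the brightest probe set minus its mean over the 6 arrays; bars mark the mean of the 7 genes. The mean runs from -0.12 on ICD 3 to 0.11 on WT 3, with WT 1 at -0.011.

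Each gene was also set against the rest of the limb within each array. Set against the mean of the other 6 genes on the same array, centred Ptger3 was -0.21, -0.12 and -0.097 in ICD kidneys, against 0.093, 0.11 and 0.22 in WT kidneys. The ICD and WT arrays did not overlap in this measure, whose difference was -0.28. The same measure was between -0.040 and 0.016 for Kcnj1, Casr and Slc12a1, 0.085 for Bsnd, and 0.12 and 0.14 for Umod and Egf, whose ICD arrays all lay above their WT arrays in it. It is relative, so part of the positive values of Umod and Egf comes from the low Ptger3 values in the mean they are set against. By their own values Umod and Egf differed by -0.0093 and 0.010, with overlap of the groups. No test was made of the relative measure, and how often it separates the groups among other genes was not computed.

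**Figure D4:**
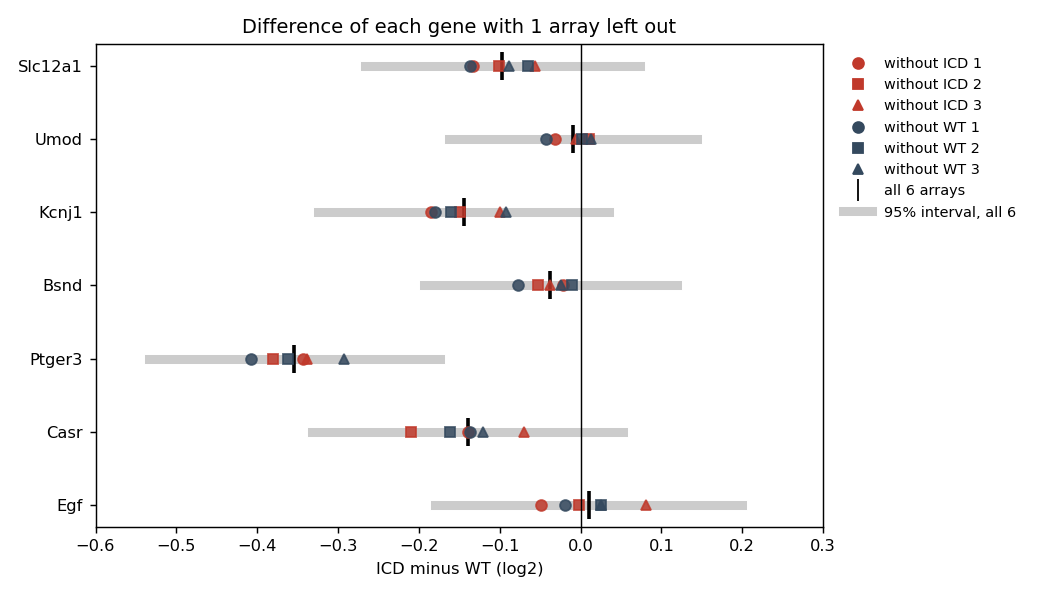
Difference between ICD and WT (log2) of the 7 limb genes with all 6 arrays (black mark, grey bar for the 95% interval) and with each single array left out (red without an ICD array, dark without a WT array). Ptger3 stays between -0.41 and -0.29, and Umod and Egf lie on both sides of 0.

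The other genes of limb salt transport were taken from fixed lists, 1 probe set per gene. Of 12 measured channels, pumps and paracellular proteins, 8 were lower in ICD kidneys and 4 higher (median -0.046), where 56.1% of all genes were lower. None passed the limma test in either direction, and 1 had an unadjusted p under 0.05, against 2.2% of all genes for lower values: Kcnj10, the basolateral potassium channel Kir4.1 of the limb and the distal convoluted tubule. Kcnj10 read 8.85, 8.89 and 8.82 in ICD kidneys, against 9.31, 9.22 and 9.35 in WT kidneys. The gap between the groups was wider than the range within either, and 5.44% of all genes had all ICD arrays below all WT arrays. The difference was -0.44 (interval -0.59 to -0.29, limma adjusted p = 0.337), and -0.41 without WT 3. Its partner subunit Kcnj16 differed by 0.078. The claudins Cldn10 and Cldn16, which form the limb's paracellular pores for sodium and for calcium and magnesium, differed by -0.031 and 0.026. Cldn14, which blocks the Cldn16 pore, is dim (mean 6.38) and differed by -0.16 (interval -0.36 to 0.044), or -0.070 without WT 2. Its groups were barely apart, ICD 2 and WT 3 both reading 6.34 after rounding.

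Among 14 kinases and trafficking factors that act on the cotransporter, 10 were lower and 4 higher (median -0.024), and 0 had an unadjusted limma p under 0.05. Stk39, the kinase SPAK that phosphorylates NKCC2, differed by -0.16 (interval -0.33 to 0.021). Its relative Oxsr1 differed by 0.043, and their activator Wnk1 by -0.026. Of 19 genes of hormone and prostaglandin control, 12 were lower and 7 higher (median -0.021). Avpr2, the vasopressin receptor that stimulates transport in the limb and water uptake in the collecting duct, read 8.86, 8.98 and 8.95 in ICD kidneys, against 9.13, 9.17 and 9.18 in WT kidneys. Every ICD array lay below every WT array, by a difference of -0.23 (interval -0.39 to -0.084, limma adjusted p = 0.714). The other prostaglandin E2 receptors Ptger1, Ptger2 and Ptger4 differed by -0.026, -0.15 and 0.12 (-0.0025, -0.22 and 0.064 without WT 3), and none of them passed. Ptger2 read 4.15 to 4.38, near the low end of the array scale.

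Of 12 partners of uromodulin and EGF and transcription factors of the limb, 9 were lower and 3 higher (median -0.041, and -0.016 without WT 3). Hpn, the protease that releases uromodulin, differed by -0.019, Egfr, the receptor of EGF, by -0.047, and Irx1, a transcription factor of the segment, by -0.15. At its brightest probe set the mitochondrial coactivator Ppargc1a read 10.80, 11.08 and 10.82 in ICD kidneys, against 10.78, 10.40 and 10.28 in WT kidneys, a difference of 0.41 (limma adjusted p = 0.738). Its 4 other probe sets differed by -0.16 to -0.0096, opposite in sign.

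Other markers of the limb were compared with those of its neighbours. Of 9 limb markers outside the 7 genes, 7 were lower and 2 higher, by a median of -0.076, which was -0.017 without ICD 3 and -0.016 without WT 3. Of these 9, 4 are also counted in the lists above (Cldn10, Cldn16, Cldn19 and Irx1). Their mean level was 9.04 to 9.14 on ICD arrays and 9.15 to 9.21 on WT arrays. Markers of the thin limb and inner medulla were lower for 7 of 9 (median -0.15, and -0.077 without ICD 1), with mean levels of 8.03 to 8.21 and 8.24 to 8.33 in ICD and WT kidneys. Principal cell markers of the collecting duct were lower for 10 of 12 (median -0.081, and -0.038 without WT 3), with mean levels of 9.21 to 9.36 and 9.29 to 9.44. Distal convoluted tubule markers were lower for 4 of 9 (median 0.026). Slc12a3, the thiazide-sensitive relative of Slc12a1, differed by 0.12 (interval -0.047 to 0.28). The largest difference of that list, picked after its values were seen, was that of the calcium-binding protein Pvalb, -0.67 (interval -1.36 to 0.029), and it was -1.08 without ICD 1, with overlap of the groups. None of these genes passed. The thin limb and inner medulla list, like Ptger3, had its mean level lower on every ICD array than on every WT array. This depended on its marker Sptssb (difference -0.40), without which ICD 2 lay above WT 1 and WT 2. Mean levels were also apart for the other limb markers, for the channels, pumps and paracellular proteins, and for the urothelial and adrenal markers described below. The gaps were narrow, the highest ICD and lowest WT arrays reading 9.136 and 9.148, 10.13 and 10.17, 7.70 and 7.73, and 6.11 and 6.125. In the channel list, ICD 2 lay above WT 3 once Kcnj10 (difference -0.44) was taken out. How often the mean levels of other gene groups separate these arrays was not computed. The mean level of the principal cell list did not separate the groups, ICD 2 lying above WT 2. All ICD arrays were below all WT arrays for 3 of the 9 thin limb and inner medulla markers and 3 of the 12 principal cell markers. Over all genes this share was 5.44%. Of these markers, Slc6a12 in the thin limb list is dim (mean 5.84), and Avpr2 in the principal cell list is also counted under hormone control. The part of the medullary share of the samples in the Ptger3 difference was not tested.

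In the cortex, all 7 measured podocyte markers had every ICD array above every WT array, an outcome found for 3.66% of all genes, with mean levels of 8.14 to 8.23 in ICD and 7.67 to 7.89 in WT kidneys. By brightest probe set, Cdkn1c, Wt1, Podxl and Synpo differed by 0.55, 0.52, 0.40 and 0.35, and the second, dim Synpo probe set by -0.072 with overlap. Proximal tubule markers were higher for 9 of 14 (median 0.042, and 0.010 without WT 3), with mean levels of 13.17 to 13.28 and 12.56 to 13.25 in ICD and WT kidneys. Without the 3 transporters low on WT 3 the mean levels were 13.85 to 13.86 and 13.79 to 13.85. Slc6a19, a transporter of neutral amino acids, differed by 0.81 and by 0.38 without WT 3. The part of these cell types in the limb values was not tested. Markers of the macula densa, at the end of the limb, were lower for 3 of 5 (median -0.00057).

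**Figure D5:**
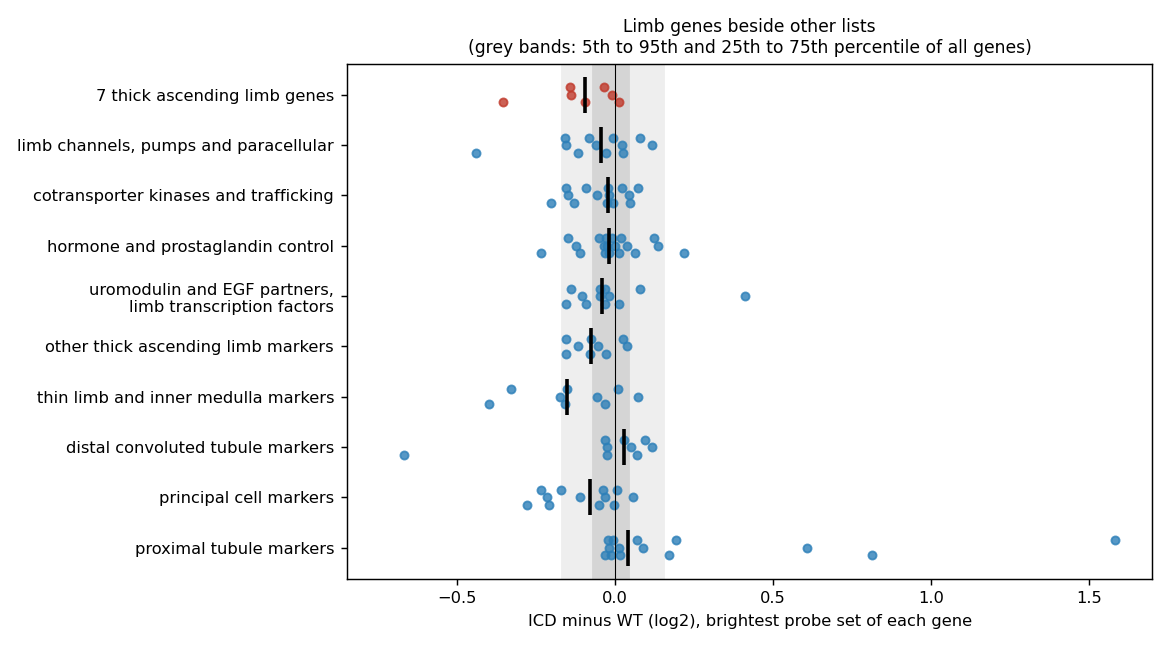
Difference between ICD and WT (log2) of each measured gene, by its brightest probe set, in the 7 limb genes (red) and in 9 other lists (blue); black marks are list medians, and grey bands run between the 5th and 95th and between the 25th and 75th percentiles of all genes (-0.17 to 0.15 and -0.069 to 0.044). The 7 genes have a median of -0.097, that of thin limb and inner medulla markers is -0.15, and that of proximal tubule markers is 0.042.

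The genes whose pattern over the 6 arrays was most like the mean of the 7 limb genes were, by Pearson's r among 11684 candidates, Mbp (r = 0.992), Rap1a (0.992), 9030619P08Rik (0.990), Mrps27 (0.990) and Npat (0.989). Spearman's rho lay between 0.829 and 0.943, and r without WT 3 and ICD 3, the 2 arrays furthest from the median, between 0.927 and 0.953. With 6 arrays and so many candidates high values are common, 139 candidates having r of 0.9 or more and 90 having r of -0.9 or less. Mbp and Rap1a varied by 0.17 and 0.12 in all over the 6 arrays, and the mean of the 7 genes by 0.24, whereas the non-coding transcript 9030619P08Rik ran between 9.76 and 10.26 in ICD kidneys and between 10.45 and 10.96 in WT kidneys. These are descriptions of 6 arrays and carry no test.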

How the data were processed

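Kidney RNA of 6 mice was measured on 1 Affymetrix array each. The authors deposited log2 values, and the submitters' processing notes name RMA. This method subtracts background, gives all arrays 1 distribution and summarises the probes of a set, which compresses differences of dim sets. Its version and chip definition are not given in the sources used here. Detection calls were not analysed here. Of 45101 rows, 64 controls were left out. The annotation gave 1 gene for 34945 probe sets, several for 932 and none for 9160, and 0 symbols changed when checked by Entrez identifier against RefSeq.

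The genotypes were compared in R 4.3.3 by limma 3.58.1 (functions lmFit and eBayes, genotype as the 1 term, 2-sided, Benjamini-Hochberg over 45037 probe sets), tested on simulated data. An exact permutation of 3 against 3 cannot go below 0.1, so none was used. Replicates are separate animals, and the number of arrays limits the precision: the half-width of the 95% interval at the 12 limb probe sets was 0.15 to 0.23. A gene stands for its brightest probe set. Replicate numbers did not pair the animals (correlations of deviations -0.0057, 0.0077 and -0.047).

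The 7 genes and all lists were chosen with earlier results of these data known. Named genes are every probe set of the 7; of each other list, genes past the threshold or, failing that, up to 4 with unadjusted p under 0.05; and the 5 genes most like the mean of the 7. Other genes named from a list were picked for their role or because a count in the text refers to them.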

Additional observations from a re-analysis of the deposited data

How the results depend on the processing

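No limb probe set passed under any alternative tried: another prior, array weights, quantile normalization or median centring, bright probe sets alone, the replicate block and leaving out each array. The lowest adjusted p was 0.408. Of 142 values of the 12 probe sets under these alternatives, 131 kept their sign, among them every one of Slc12a1, Bsnd, Ptger3 and Casr. The other prior, the bright probe sets alone and the replicate block cannot alter a difference, so their values kept their sign by construction. All 11 reversals came from the remaining alternatives. Umod turned to 0.00067 at 1456306_a_at after quantile normalization. With single arrays left out, the difference ranged from -0.042 to 0.013 at Umod 1456306_a_at, -0.063 to 0.025 at Umod 1426252_a_at, -0.13 to 0.069 at Kcnj1 1418614_at and -0.049 to 0.081 at Egf 1418093_a_at. The median of the 7 genes ranged from -0.14 to -0.056 (without WT 1 and without ICD 3). Each replicate number holds both groups, so the replicate block could not move this median from -0.097. The number of calls with the block was 0.

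The number of all probe sets past the threshold was 0, and 0 to 1 with single arrays left out. With the trended and robust prior it was 1, the unnamed 1447096_at (difference 0.99, limma adjusted p = 0.0301). The 1 probe set was Ugt2a3 without ICD 1 (1.60), the unnamed 1435872_at without ICD 2 (1.81) and the unnamed 1448754_at without WT 3 (-2.28). Alternatives for medians of lists and for genes named from lists were added after seeing the data. Some medians near 0 changed sign, for example that of kinases and trafficking factors, 0.0087 without WT 2, that of hormone control, 0.0090 without WT 1, and that of distal convoluted tubule markers, -0.050 without ICD 1.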

Other observations

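Cell types outside the tubule were read by further marker lists. Endothelial markers were higher in ICD kidneys for 10 of 10 genes with a median difference of 0.10, which was -0.016 without WT 3. Plat, tissue plasminogen activator, differed by 0.27 (interval 0.033 to 0.52), and by 0.16 without WT 3, and its second, dim probe set differed by 0.063 with overlap. Urothelial markers, which come with the renal pelvis, were lower for 7 of 8 (median -0.16, -0.082 without ICD 2 and -0.096 without WT 1), and Psca, a surface antigen of the urothelium, read 8.37, 8.45 and 8.39 in ICD kidneys, against 8.63, 8.59 and 8.63 in WT kidneys. Sprr1a, a protein of stratified epithelia, differed by -0.22 with overlap. Intercalated cell markers were lower for 5 of 9 (median -0.0043, -0.13 without ICD 2 and 0.069 without ICD 3), and adrenal markers for 3 of 4 (median -0.098). None of these genes passed the limma test.

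Sptssb, a subunit of the enzyme that begins sphingolipid synthesis and a marker in the thin limb list, read 6.99, 7.18 and 7.09 in ICD kidneys, against 7.54, 7.44 and 7.48 in WT kidneys at 1417803_at. The difference was -0.40 (interval -0.57 to -0.23, limma adjusted p = 0.468). Its second probe set, 1417802_at, differed by -0.15, again with no overlap between the groups. Scnn1a and Elf5 of the principal cell list differed by -0.21 and -0.28 with no overlap at the probe set used, and the second Elf5 probe set differed by -0.12 with overlap.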
